A study of Mus musculus with 6 samples.

Results

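Septins are GTP-binding proteins that join end to end into filaments and rings under membranes. The gene family was taken from an array study of neural stem cells as every probe set whose platform symbol is Septin1 to Septin12. This gave 31 probe sets for 12 genes, out of 45037 probe sets and 18193 named genes in all. Of the 31, 30 carried a septin symbol alone and covered 11 of those genes. Septin5 was read by the remaining one only, which is annotated to Septin5 and Gp1bb together.

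Total RNA was measured on 6 Affymetrix arrays, 1 sample each, of neural stem cells from C57BL/6JRj mice. The YoungNSC group held 3 samples of mice aged 6 weeks, and the OldNSC group 3 samples of mice aged 9 months. No agent or engineered allele is named for either group, and strain, cell type, RNA kit and labelling were shared by both. The labels do not say whether replicates are separate mice or cultures, and p-values therefore cover no more than the spread of these arrays, part of which may be technical.

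Septin filaments are built from rod-shaped complexes in which members of different subgroups take set positions, and members of the same subgroup can replace each other. The subgroups are named after Septin2, Septin3, Septin6 and Septin7, and Septin7 is the only member of its own. Filaments gather at the cleavage furrow of dividing cells, where they bind the contractile ring, and at the base of cilia and dendritic spines, where they hold membrane proteins in place as a diffusion barrier. The title of the study names the segregation of age in neural stem cells, and in budding yeast the septin ring at the bud neck is known to hold such a barrier at division.

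The levels are log2 values on the authors' GCRMA scale, whose lowest value, 2.14, was shared by all arrays. Between 42.6 and 43.6% of the probe sets on an array lay within log2 0.01 of it. Young arrays correlated with each other at r = 0.979 to 0.993 and old arrays at 0.995, while pairs across age reached 0.915 to 0.944 (Pearson's r across probe sets, which do not count as replicates). The 18 hybridisation control probe sets, which read RNA added in fixed amount, had a lower level on all old than on all young arrays (mean 13.24 ± 0.28 against 12.28 ± 0.098, log2, SD, n = 3, exact permutation p = 0.1, two-sided, the smallest that 3 against 3 allow). Their part in the differences below was not tested. With 3 arrays for each age, their number sets the precision.

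The labelled cell type was checked on its markers. Of 9 stem cell markers with a probe set, 8 passed the filter (above log2 4 on at least 3 arrays), Sox2 at 13.44 ± 0.076 in young and 13.30 ± 0.043 in old samples (log2, SD, n = 3), and Prom1 did not. Msi1 rose, while Nes and Sox9 fell and the Notch target Hes5 fell by 5.35 on the log2 scale (all by limma). The mean log2 level over the 9 was thus 11.25 to 11.31 on young and 10.48 to 10.55 on old arrays. Hes5 exceeded log2 4 on the young arrays alone, so that only a fall could be called for it. All 6 microglial markers lay at the lowest value on every array, as did 4 of 5 fibroblast markers, 4 of 6 of endothelium and mural cells, the myelin genes Mbp, Mog and Mag and the neuronal genes Rbfox3 and Slc17a7. No fibroblast marker passed the filter, and of the endothelial and mural ones Acta2 alone did, which fell with a call lost on leaving out any array except old replicate 3.

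The family did not move as a whole. Septin3 was 2.73-fold lower in old cells and Septin8 1.45-fold lower, while Septin4 was 1.71-fold higher and Septin6 1.24-fold higher, each by its brightest probe set. The core members Septin2, Septin7, Septin9 and Septin11 differed by at most 1.06-fold by that measure, and none of these 4 passed the test. Septin1 and Septin12 lay at the lowest value on all 6 arrays. Probe sets of 1 gene did not always move alike, and the size of the change differed most for Septin7 and Septin11. Those of Septin6 differed in sign, with changes from -0.40 to 0.31 on the log2 scale, and only 1 of its 5 tested probe sets passed.

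Probe sets that passed the filter were tested with limma, and adjusted p refers to Benjamini-Hochberg adjustment over all 19858 of them, with 0.05 as the threshold. Of the 30 septin probe sets, 24 passed this filter, all of them above log2 4 on all 6 arrays, so that none entered through 1 age alone. In old cells 5 of the 24 rose and 5 fell, against 20.1% and 16.5% of all tested probe sets. The share called in either direction was 41.7% for septins and 36.6% for all, which is close. Young and old arrays did not overlap for 17 of 24, or 70.8%, against 55.3% of all. The median size of the change was log2 0.35 for septins and 0.25 for all tested probe sets. By the brightest probe set of each gene, 2 of 9 septins rose and 2 fell, against 22.0% and 18.5% of 10050 genes, with 40.6% called in either direction.

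**Figure D1:**
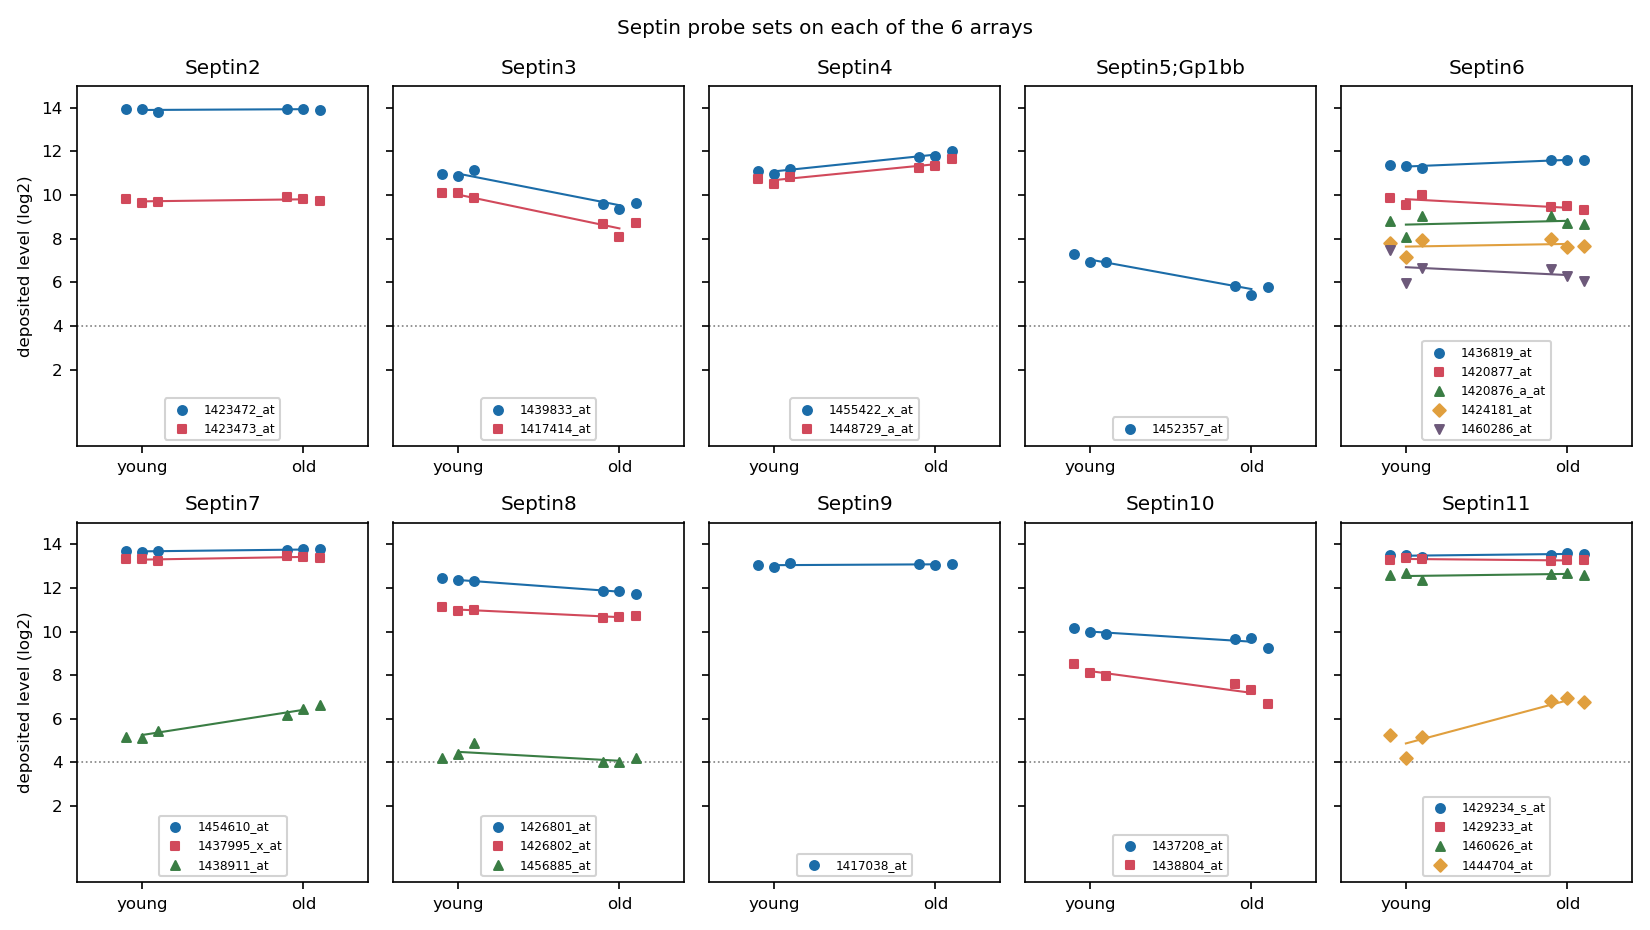
Level of each tested septin probe set on every array (y axis, deposited log2 value; points, single arrays; lines join the means of 3 young and 3 old arrays; dotted line, the filter at log2 4). Septin3 and the probe set shared by Septin5 and Gp1bb fall from young to old, and both probe sets of Septin4 rise. The dim probe sets of Septin7 and Septin11 rise while the bright ones change by 0.1235 or less.

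The Septin3 subgroup holds Septin3, Septin9 and Septin12. Septin3 is known as a brain septin of neurons and their terminals. Its probe set 1439833_at read 10.94, 10.88 and 11.13 on the young arrays and 9.60, 9.36 and 9.65 on the old ones. Every old array lay below every young one, by more than the spread within either age. The change was -1.45 ± 0.11 (log2, SE, n = 3 per age, limma adjusted p = 0.000586). Its other tested probe set, 1417414_at, read 10.11, 10.11 and 9.85 in young and 8.65, 8.06 and 8.70 in old samples. That change was -1.55 ± 0.20 (SE, limma adjusted p = 0.00318), or 2.93-fold lower. Both Septin3 probe sets kept their call under each of the 16 alternatives run for them. A dim Septin3 probe set under the filter, 1444778_at, read 4.33, 3.05 and 3.79 in young and 2.74, 2.47 and 2.57 in old samples and was not tested.

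Markers of neuroblasts and neurons, cells in which Septin3 is abundant, were set beside it. Of 5 neuroblast markers that passed the filter all 5 fell, against 18.5% of all genes, and 3 more were under it. The mean log2 level over the 8 markers was 8.35 to 8.77 on the young arrays and 6.04 to 6.17 on the old ones. Tubb3, the neuronal tubulin, went from 9.50 ± 0.18 to 3.83 ± 0.33 (log2, SD, n = 3). Its old arrays read 4.06, 3.46 and 3.98, so that Tubb3 passed the filter only through the young arrays. Of 5 neuron markers above the filter, 3 fell (Snap25, Syn1 and Elavl3), Gad1 rose and Map2 was not called, with means over the 8 listed of 6.05 to 6.18 and 5.54 to 5.75. The call for Snap25 was lost without young replicate 1 and without old replicates 2 or 3. Snap25 and the neuroblast marker Neurod1 exceeded log2 4 on the young arrays alone, so that only a fall could be called for them. What part these cells have in the fall of Septin3 was not tested, and in such bulk samples fewer cells of a type and less RNA per cell cannot be told apart.

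Septin9, which is widely expressed, read 13.03, 12.94 and 13.16 in young and 13.08, 13.05 and 13.12 in old samples. The ages overlapped, and the change was 0.04 with a 95% interval of -0.14 to 0.21 (limma adjusted p = 0.686). Changes of over 1.16-fold upward or to under 0.91-fold thus lay outside the interval for this probe set. Septin12, known from the sperm tail, was at the lowest value on every array by both of its probe sets.

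The Septin2 subgroup includes Septin1, Septin2, Septin4 and Septin5. Septin4 is found in glia and neurons, and a splice form of it, ARTS, promotes cell death. Its probe set 1455422_x_at read 11.11, 10.96 and 11.19 in young and 11.73, 11.81 and 12.02 in old samples. The old arrays all lay above the young ones, and the change was 0.77 ± 0.10 (log2, SE, n = 3 per age, limma adjusted p = 0.00385). The probe set 1448729_a_at read 10.72, 10.49 and 10.84 in young and 11.25, 11.32 and 11.67 in old samples. It rose by 0.73 ± 0.15 (SE, limma adjusted p = 0.0144), a call lost without the filter (adjusted p = 0.0658) and at the stricter threshold of 0.01. The ending _x_at marks a probe set that can also bind other transcripts, and whether it did so here was not tested. The changes of both Septin4 probe sets differed by -0.04 (exact permutation p = 0.6), a test that cannot show them to be equal. No array of either age, when left out, ended either Septin4 call.

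Astrocyte markers, a cell type in which Septin4 is abundant, moved both ways. Of 8, all tested, 4 rose and 2 fell, against 22.0% and 18.5% of all genes. The mean log2 level over the 8 was 8.96 to 9.45 on the young and 9.55 to 10.05 on the old arrays. S100b rose by 2.93 on the log2 scale, while the marker Gfap, with a change of 0.31, did not pass (limma adjusted p = 0.446). Of the 2 that fell, Ntsr2 changed by -3.35 on the log2 scale (limma adjusted p = 0.00104) and kept its call under each of 16 alternatives. Slc1a2 lost its call on leaving out any array except old replicate 2. What part astrocytes have in the rise of Septin4 was not tested.

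Septin2, which is best known from cytokinesis, did not pass at either probe set. Its probe set 1423472_at read 13.94, 13.93 and 13.82 in young and 13.95, 13.94 and 13.92 in old samples, a change of 0.04 with a 95% interval of -0.09 to 0.17 (limma adjusted p = 0.61). Its other probe set, 1423473_at, had a change of 0.09 with an interval of -0.10 to 0.29 (limma adjusted p = 0.389), and the ages overlapped in both. Septin1, a septin of blood cells, lay at the lowest value throughout.

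Septin5, which binds syntaxin at nerve terminals, has no probe set of its own here. The shared one, 1452357_at, also carries Gp1bb, a platelet adhesion receptor subunit and its neighbour in the RefSeq table of GRCm38.p6, and is assigned to neither gene. It read 7.28, 6.92 and 6.93 in young and 5.85, 5.43 and 5.79 in old samples. Every old array lay below every young one, with a change of -1.35 ± 0.16 (log2, SE, n = 3 per age, limma adjusted p = 0.00236), which is 2.55-fold lower.

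The Septin6 subgroup holds Septin6, Septin8, Septin10 and Septin11. Of its 16 probe sets 14 were tested, of which 2 rose and 3 fell. The share called was thus 35.7%, close to the 36.6% of all tested probe sets. Septin8, which occurs at synapses and in myelin, fell at its brightest probe set. There, 1426801_at read 12.44, 12.35 and 12.31 in young and 11.87, 11.88 and 11.75 in old samples. The ages did not overlap, and the change was -0.54 ± 0.063 (log2, SE, n = 3 per age, limma adjusted p = 0.00251). At 1426802_at the level was 11.11, 10.94 and 10.98 in young and 10.64, 10.65 and 10.69 in old samples. This fell by 0.35 on the log2 scale (limma adjusted p = 0.00927), and the larger and the smaller fall differed by 0.19 (exact permutation p = 0.1). The dim Septin8 probe set 1456885_at, between 4.02 and 4.87 on all arrays, had a change of -0.41 and did not pass (limma adjusted p = 0.13).

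Markers of the oligodendrocyte lineage were also compared, and part of them fell. Of 6 progenitor markers that passed the filter 4 fell and none rose, against 18.5% and 22.0% of all genes. The mean log2 level over all 8 was 8.78 to 8.97 on the young and 7.01 to 7.08 on the old arrays. Nkx2-2 had the largest fall, from a mean of 10.51 to 2.26, close to the lowest value. Cspg4 fell by 1.99 on the log2 scale, whereas Olig1 and Olig2, with changes of 0.04 and 0.09, did not pass (limma adjusted p = 0.57 and 0.281). Of 3 markers of mature oligodendrocytes that passed, 2 fell and Cnp was not called, with a mean over 7 markers of 5.56 to 5.69 and 4.02 to 4.26. Of these, Ugt8a went from a mean of 9.63 to the lowest value on every old array. Nkx2-2 and Ugt8a weigh most in the means of their lists. Both exceeded log2 4 on the young arrays alone, so that only a fall could be called for them. What part cells of this lineage have in the fall of Septin8 was not tested.

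Septin10 lay lower in old cells at both probe sets but close to the threshold. Its 1437208_at read 10.15, 9.98 and 9.87 in young and 9.65, 9.72 and 9.23 in old samples, a change of -0.46 ± 0.15 (SE) that did not pass (limma adjusted p = 0.0651). At 1438804_at it read 8.52, 8.09 and 7.96 in young and 7.60, 7.32 and 6.66 in old samples. This fell by 1.00 on the log2 scale with a 95% interval of -1.70 to -0.29 (limma adjusted p = 0.0415). The ages did not overlap in either. The call was lost on leaving out any array except old replicate 1, with changes from -1.11 to -0.73 among the 5 arrays that ended it and adjusted p of 0.0674 to 0.101. It was also lost at the stricter threshold of 0.01, without the filter and with array weights (limma adjusted p = 0.157 and 0.0507 for the last 2).

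Septin6 had 7 probe sets, of which 5 were tested, and they disagreed. The brightest, 1436819_at, read 11.37, 11.31 and 11.25 in young and 11.61, 11.60 and 11.63 in old samples. It rose by 0.31 ± 0.050 (log2, SE, n = 3 per age, limma adjusted p = 0.00743), a small change with a narrow spread. In contrast 1420877_at read 9.87, 9.56 and 10.01 in young and 9.45, 9.48 and 9.32 in old samples, a change of -0.40 in the other direction that did not pass (limma adjusted p = 0.059). It passed as lower in 5 of 16 alternatives, which were repeated quantile normalization, centring on the median, array weights, the eBayes trend option and leaving out young replicate 2. The difference between these changes, taken on each array, was -0.70, with no overlap of the ages (exact permutation p = 0.1).

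In the other 3 tested Septin6 probe sets young replicate 2 was the lowest young array. At 1420876_a_at it read 8.06, against 8.82 and 9.05 in the other young samples and 8.69 to 9.06 in old ones. At 1424181_at it read 7.17 against 7.79 and 7.94, and at 1460286_at 5.98 against 7.46 and 6.64. None of the 3 passed with all arrays, with changes of 0.17, 0.12 and -0.36. Without young replicate 2, the first of them had a change of -0.12 and the second of -0.11, both with the sign turned. The third turned its sign without young replicate 1, to 0.022. Without young replicate 2, 1420877_at passed as lower by 0.52 on the log2 scale (limma adjusted p = 0.0113), while the rise of 1436819_at was kept. The remaining Septin6 probe sets were under the filter, 1431973_at at 2.24 to 2.52 and 1440939_at at the lowest value.

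Septin11 takes part in complexes with Septin7 and was read by 4 probe sets. The brightest, 1429234_s_at, read 13.51, 13.49 and 13.43 in young and 13.53, 13.59 and 13.55 in old samples, a change of 0.08 with a 95% interval of -0.04 to 0.20 (limma adjusted p = 0.239). The change was -0.07 at 1429233_at and 0.10 at 1460626_at, and neither passed (limma adjusted p = 0.317 and 0.413). The dim probe set 1444704_at stood apart from these. It read 5.24, 4.23 and 5.15 in young and 6.82, 6.94 and 6.78 in old samples, 3.93-fold higher (log2 change 1.97 ± 0.28, SE, limma adjusted p = 0.00477). This was the largest called rise among the septin probe sets. Set against the brightest Septin11 probe set on each array, its change was larger by 1.89, with no overlap between the ages (exact permutation p = 0.1).

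Septin7, the member that no other septin replaces, showed the same split. Its brightest probe set, 1454610_at, read 13.71, 13.64 and 13.68 in young and 13.75, 13.76 and 13.77 in old samples. The ages did not overlap, but the change of 0.08, with a 95% interval of -0.03 to 0.19, did not pass (limma adjusted p = 0.189). At 1437995_x_at the change was 0.12 (limma adjusted p = 0.12). The dim 1438911_at read 5.19, 5.13 and 5.45 in young and 6.17, 6.44 and 6.62 in old samples, a rise of 1.16 ± 0.15 (log2, SE, n = 3 per age, limma adjusted p = 0.00318). It moved by 1.07 more than the brightest probe set of Septin7 (exact permutation p = 0.1).

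**Figure D2:**
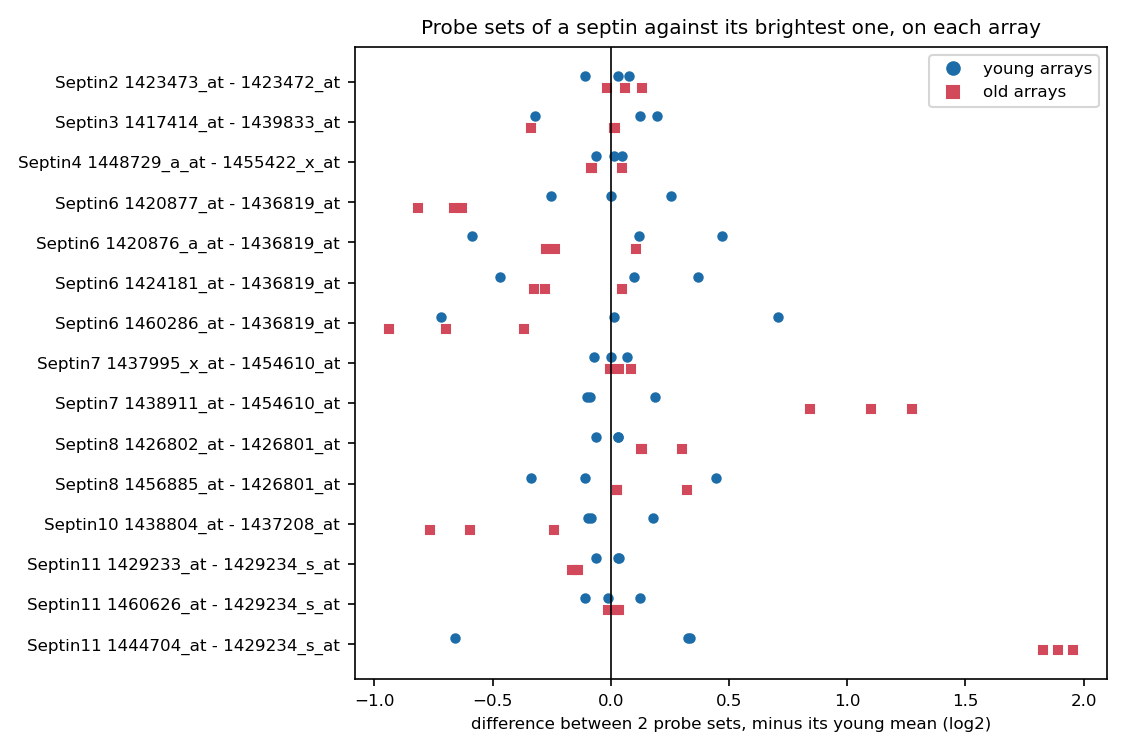
Difference between each tested probe set of a septin and the brightest one of that gene on every array (x axis, log2, after taking away the young mean of the pair; circles, 3 young arrays; squares, 3 old arrays). The old arrays stand apart most for 1444704_at of Septin11 and 1438911_at of Septin7, to the right, and for 1420877_at of Septin6, to the left.

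Across the 8 septins with several tested probe sets, 15 pairs were compared in this way. The ages did not overlap for 6 pairs, each with the smallest possible exact permutation p of 0.1, and 0.25 after Benjamini-Hochberg adjustment over the 15. Pairs of probe sets of other genes were not compared. Whether 6 of 15 is more than other genes show was therefore not tested. In 3 pairs the probe sets had changes of opposite sign, all in Septin6 and Septin11. For Septin2, Septin3 and Septin4 the changes of the pair differed by 0.06, -0.10 and -0.04 on the log2 scale.

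Proteins that act with septins were listed in 3 groups by their known roles. Of these, 28 genes were tested, and 3 rose and 10 fell, to be read against 22.0% and 18.5% of all genes. The median change was -0.12 for the list and 0.01 for all genes. The Borg proteins, named Cdc42ep1 to Cdc42ep5, bind septins under the control of the small GTPase Cdc42. Cdc42ep4, the Borg protein of astrocytes, read 12.25, 12.05 and 12.24 in young and 9.76, 10.04 and 9.82 in old samples. It fell by 2.31 on the log2 scale (SE 0.10, limma adjusted p = 0.00011), 4.94-fold, and its other tested probe set fell as well. Cdc42ep1 went the other way, from 8.66, 8.47 and 8.47 to 9.37, 9.33 and 9.48, and rose by 0.86 ± 0.078 (SE, limma adjusted p = 0.0011). Cdc42ep3 fell by 0.79 (limma adjusted p = 0.0217), a call lost without old replicate 1 and without any young replicate. Cdc42ep2, with a change of 0.42 (adjusted p = 0.0681), and Cdc42 itself, with -0.02 (adjusted p = 0.804), did not pass limma's test, and Cdc42ep5 was at the lowest value.

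Among genes of the contractile ring and its regulators, 6 of 16 tested genes fell and 2 rose. Myh10, a non-muscle myosin heavy chain, fell by 1.31 ± 0.074 (log2, SE, n = 3 per age, limma adjusted p = 0.000253). It read 12.30, 12.43 and 12.44 in young and 11.15, 11.12 and 10.97 in old samples. Myh9, the related heavy chain, had a change of 0.20 and did not pass at its brightest probe set (limma adjusted p = 0.0503). That probe set passed as higher in 5 of 16 alternatives, and 1 of the other 3 tested Myh9 probe sets rose. The light chain Myl9 fell by 2.24 (adjusted p = 0.0135), while its relative Myl12a, at -0.01, did not pass (adjusted p = 0.94, both by limma). Kif23 and Racgap1 form the centralspindlin complex that places the furrow, and fell by 1.02 and 0.54 (limma adjusted p = 0.00452 and 0.00855), and the other tested probe set of each fell too. Prc1, which bundles the midzone microtubules, fell by 0.34, a call lost without young replicates 1 or 3. Anln, the scaffold that brings septins to the ring, had a change of -0.26 and did not pass (limma adjusted p = 0.0666), and neither did Rhoa at -0.01. The fall of Ect2 (-0.28) was lost without any 1 array, and the rise of the formin Diaph3 (0.43) without any except young replicate 1. The rise of the guanine nucleotide exchange factor Arhgef18 (0.36) was lost without young replicate 1 or old replicates 1 or 3.

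Of the other septin-binding proteins, 2 of 7 tested fell and none rose, against 18.5% and 22.0% of all genes. The share called in either direction was 28.6%, against 40.6% of all genes. Cenpe, the kinetochore motor, fell by 1.10 (limma adjusted p = 0.0125) and Map4, which competes with septins on microtubules, by 0.20, the latter call being lost without young replicates 1 or 3 or old replicates 2 or 3. The glutamate transporter Slc1a3, a septin-bound membrane protein of astrocytes, had a change of -0.01 at its brightest probe set (limma adjusted p = 0.907), while 1 of its other 5 tested probe sets fell. Stx1a, Xiap, Sh3kbp1 and Hdac6 did not pass, with changes from -0.23 to 0.29. Rock2 was not analysed here.

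**Figure D3:**
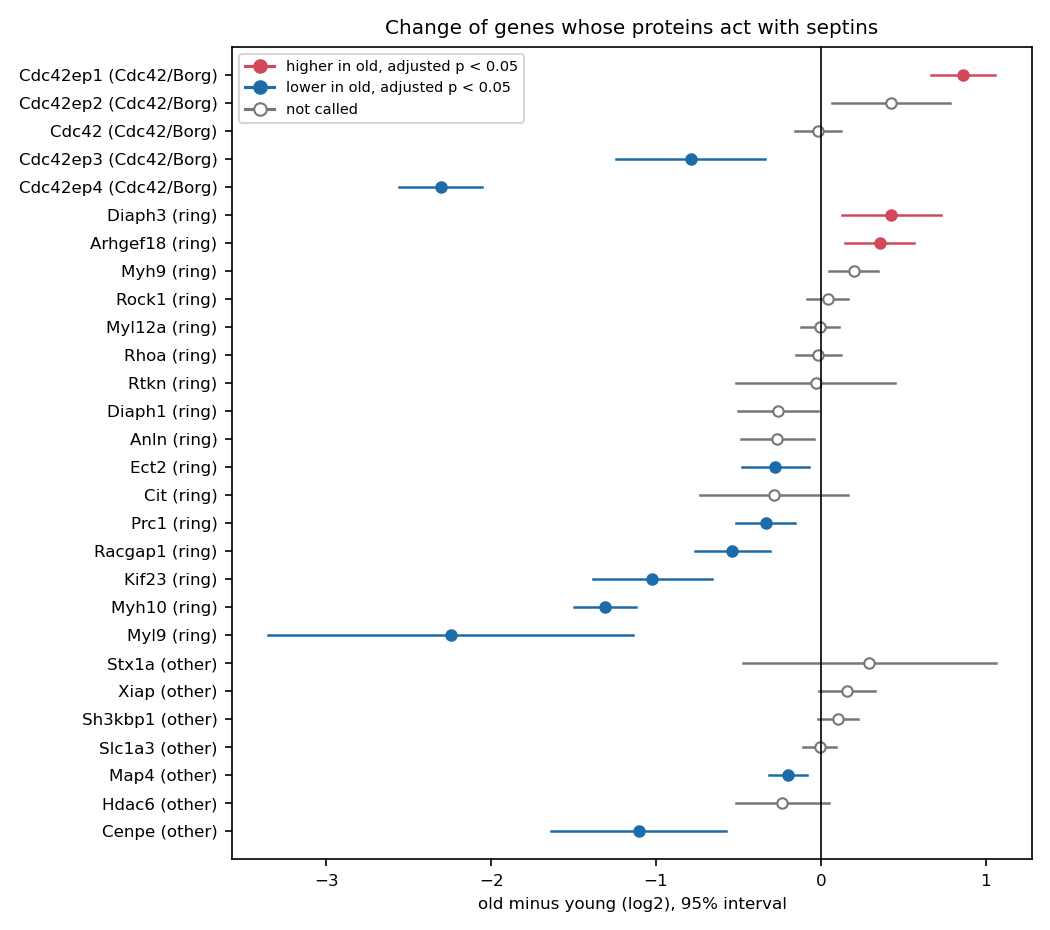
Change of the 28 tested genes whose proteins act with septins, by brightest probe set and in 3 groups (x axis, old minus young, log2; bars, 95% intervals from limma; filled points, adjusted p under 0.05). The falls of Cdc42ep4, Myl9 and Myh10 are the largest, and Cdc42ep1 shows the largest rise.

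Genes whose levels followed the same course as the most changed septin probe sets were found by the root mean square difference between profiles over the 6 arrays, each centred on its own mean, among 9714 genes (septins and predicted genes left out). Nearest to Septin3 at 1417414_at were Btg2, an antiproliferative gene (0.0999 on the log2 scale), the receptor phosphatase Ptprd (0.12), the growth factor receptor Pdgfra (0.127), Tbc1d9 (0.156) and the interleukin receptor subunit Il1rap (0.171). Their changes ran from -1.83 to -1.42. Nearest to the dim Septin11 probe set 1444704_at were Fam114a1 (0.122), Kank4 (0.183), the lysosomal enzyme Naglu (0.183), angiotensinogen, Agt (0.188), and Neurl1a (0.189). These rose by 1.63 to 2.24. The distances are descriptions, since the profiles share the same arrays.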

How the data were processed

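The authors' deposited log2 values come from GCRMA (named in the submitters' processing notes), a method that subtracts background, normalizes arrays to each other and gives 1 level per probe set. That they are log2 was read from their range. No coordinates are printed, because no source used here names the build behind the array.

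The members and lists were chosen with earlier results of these data known. After 64 control probe sets were left out, symbols came from the platform annotation, updated by Entrez identifier through RefSeq names of GRCm38.p6 (99.4% matched, 0 changed). Probe sets that exceeded log2 4 on 3 or more arrays were fitted by lmFit and eBayes (limma 3.58.1, R 4.3.3, two-sided), and p-values were adjusted by Benjamini-Hochberg over all 19858. A gene outside the septins stands for its brightest tested probe set. By rule the text could name every septin, every listed partner and the 5 genes nearest to the largest called rise and fall. Pairs of probe sets were compared with exact permutation tests in SciPy 1.17.1. The limma script was tested on simulated data. Deviations of same-numbered young and old samples correlated at -0.16, -0.108 and 0.157, so the numbers were not taken as pairs. Alternatives were other filters, scalings, array weights, a block, other variance moderation, a stricter threshold and leaving out each array.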

Additional observations from a re-analysis of the deposited data

How the results depend on the processing

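No called septin probe set changed sign under the 16 alternatives. The septin counts, 5 higher and 5 lower, stayed within 1.5 times under each, at 5 higher and 4 to 5 lower on leaving out 1 array. The signs that turned belong to probe sets that did not pass. On leaving out 1 array the change ran from -0.0021 (without young replicate 3) to 0.058 for 1423472_at of Septin2. For Septin6 it ran from -0.12 to 0.38 at 1420876_a_at and from -0.11 to 0.28 at 1424181_at, both lowest without young replicate 2, and from -0.72 to 0.022 at 1460286_at, highest without young replicate 1. For Septin9 it ran from -0.012 (without young replicate 2) to 0.097. With array weights the change was -0.0067 for 1420876_a_at, -0.024 for 1424181_at and -0.0062 for Septin9. For the partner genes, 3 higher and 10 lower, there were 1 and 5 without the filter and 1 and 4 at an adjusted p under 0.01. On leaving out 1 array they numbered 1 to 3 higher (1 without old replicates 1 or 3) and 6 to 9 lower (6 without young replicates 1 or 3). Over all probe sets, calls numbered 7268 in the main analysis and 3777 at an adjusted p under 0.01. With the replicate number as a block there were 5600, of which septin probe sets were 5 higher and 6 lower and partner genes 4 higher and 9 lower. Not every sample correlated best with its own number. With variance moderation that follows the level (the trend option), 7 septin probe sets were higher and 7 lower, and the bright Septin7 probe sets passed (adjusted p = 0.0334 and 0.0311 by limma), as did 1437208_at of Septin10 (0.0402). The cause of these changes was not tested. GCRMA's floor and 3 arrays per age limit what can be said of dim probe sets.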
